A study of Mus musculus with 6 samples.

Results

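Anterior visceral endoderm (AVE) signalling cells were described here in mouse embryos of stages E5.0, E5.25 and E5.5 (E for embryonic day), from RNA counted in single cells. Cells were chosen by their unique molecular identifiers (UMIs, which mark single RNA molecules). A cell was kept if 1500 or more genes were detected and no more than 15% of its UMIs came from mitochondrial genes. Endoderm cells had at least 15 UMIs of Cubn, Lrp2, Dab2 and Amn together per 10000, and under 5 of Pou5f1, Slc7a3, Pim2 and L1td1. The AVE cells were selected on 2 further genes, as endoderm cells with at least 1 UMI of Cer1 or at least 2 UMIs of Lefty1. The rule found 655 of 5946 endoderm cells among 18251 kept cells of the 3 stages: 289 of 2336 at E5.0, 212 of 1499 at E5.25 and 154 of 2111 at E5.5. The other 5291 endoderm cells of the same libraries served as the comparison.

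The study sampled whole embryos before and after implantation, with 1 droplet library (10x Chromium 3′ chemistry) at each of 6 stages from E3.5 to E5.5. Mothers were B6SJLF1/J and fathers B6CBAF1/J. For E4.75 to E5.5 the mothers were 7 weeks old and embryos were dissected from the uterus, whereas the 2 earliest stages were flushed from superovulated mothers aged 4 weeks. Each library held cells of several embryos, how many is not stated in the sources at hand, and the labels name no engineered allele or treatment. Of the stages compared, the E5.5 suspension was put through a filter of 20 µm and the younger ones, E4.75 included, were not.

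The AVE is a group of visceral endoderm cells that forms at the distal tip of the egg cylinder and moves to the side that will become anterior. Its cells secrete antagonists of NODAL, WNT and BMP signals, which keep the underlying epiblast from forming primitive streak there. NODAL from the epiblast, passing through SMAD2 and FOXH1, is known to induce it, and OTX2, LHX1, FOXA2, EOMES and HHEX are known regulators. Cer1 encodes a secreted antagonist of NODAL and BMP ligands, and Lefty1 encodes a secreted NODAL inhibitor.

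The upstream sequences of Cer1, whose RNA defines the cells, and of Otx2, a homeodomain factor of the AVE, are shown because they hold the LIM-homeodomain core TAATTA. The windows are the 250 bases before a transcription start from RefSeq on GRCm38.p6, each read 5′ to 3′ on the gene's strand, with the TAATTA match in capitals. The Cer1 window is chr4:82885152-82885401 on the minus strand, with the match beginning 190 bases before the start. The Otx2 window is chr14:48667645-48667894 on the minus strand and belongs to 1 of the gene's starts, with the match 141 bases before it.
Cer1: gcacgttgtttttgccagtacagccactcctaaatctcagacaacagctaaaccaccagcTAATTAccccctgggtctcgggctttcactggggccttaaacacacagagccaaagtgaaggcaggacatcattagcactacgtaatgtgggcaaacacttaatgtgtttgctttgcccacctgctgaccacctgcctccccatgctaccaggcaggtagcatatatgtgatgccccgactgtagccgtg
Otx2: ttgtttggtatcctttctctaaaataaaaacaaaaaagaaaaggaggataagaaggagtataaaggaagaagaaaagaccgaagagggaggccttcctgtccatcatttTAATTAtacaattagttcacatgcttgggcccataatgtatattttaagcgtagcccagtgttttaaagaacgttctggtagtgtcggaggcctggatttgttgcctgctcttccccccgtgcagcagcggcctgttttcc
TAATTA, which reads the same on both strands, occurs in 4.84% of 32851 RefSeq windows of this length. In all, 4 motifs were sought: this one, with TAATCC (the OTX and GSC core), TGTTTAC (FOXA) and TCACACCT (T-box), on both strands and before the starts of 16 genes: Cer1, Lefty1, Hhex, Gsc and the 12 genes named further on as higher. Of these, 11 genes matched the promoter table, with 16 windows. TAATTA was in 3 of the 16 windows, 1 of Cer1 and 2 of Otx2. TAATCC was in 1 of the 16, against 6.25% of all windows, and TGTTTAC and TCACACCT in none, against 3.17% and 1.12%. The second Otx2 window with TAATTA, chr14:48665110-48665359, is not printed; it holds TAATTA 3 times and the only TAATCC. These are matches of letters and not sites of binding.

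Cer1 and Lefty1 chose the cells, so their values are descriptions without a test. Cer1 (chr4:82881751-82885148) stood at 19.5, 56.7 and 206.8 CPM (counts scaled to a library sum of 1000000) in the summed AVE cells of E5.0, E5.25 and E5.5, and Lefty1 (chr1:180935022-180938400) at 227.4, 253.2 and 231.2 CPM. These levels in AVE cells are bound to depth, since at the E5.5 median of 4610 UMIs a single qualifying UMI is already a high CPM: the Cer1 values rest on 100, 212 and 178 UMIs in 289, 212 and 154 cells, so no change with stage is read from them. Over all endoderm cells, which does not depend on who was called AVE, Cer1 stood at 0.290 CPM at E4.75 and then at 2.64, 9.07 and 17.4 CPM. Lefty1 over all endoderm cells stood at 18.9, 34.9, 43.4 and 23.3 CPM at the same 4 stages. The E5.5 library is the highest of the 3 for Cer1 and the lowest of the 3 for Lefty1 in this whole-endoderm measure. Lefty2, a near-identical neighbour of Lefty1, was at 0.45, 0.17 and 0.29 CPM in endoderm from E5.0 on, and reads shared by the pair could have been split between them or dropped.

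The genes that brought cells in shifted from Lefty1 to Cer1. At E5.0, 206 of the 289 cells entered by Lefty1 alone, 30 by Cer1 with fewer than 2 Lefty1 UMIs and 53 met both conditions. At E5.25 these were 97, 36 and 79 of 212 cells. At E5.5 they were 33, 93 and 28 of 154 cells, so that Cer1 was detected in 78.6% of AVE cells, against 28.7% at E5.0 and 54.2% at E5.25. When every cell was first thinned to 3000 UMIs and chosen anew, the share with Cer1 went the same way, 31.5%, 52.1% and 87.8%. Cells just inside the rule, with exactly 1 Cer1 UMI or exactly 2 Lefty1 UMIs and no more of the other, numbered 96, 55 and 86. Just outside it lay 154, 66 and 40 cells with 1 Lefty1 UMI and no Cer1, so the comparison cells include some with the signal.

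AVE cells made up 12.4% of endoderm cells at E5.0 (95% Clopper-Pearson interval 11.1 to 13.8%), 14.1% at E5.25 (12.4 to 16.01%) and 7.30% at E5.5 (6.22 to 8.49%). At equal depth the order was not the same: the shares were 3.13% (2.46 to 3.92%), 4.78% (3.76 to 5.997%) and 4.70% (3.71 to 5.87%), with 4, 15 and 538 shallower cells left out. The fall at E5.5 in the full data therefore accompanied a lower depth, with medians of 16178, 16408 and 4610 UMIs per AVE cell and 14456, 14051 and 4000 per other endoderm cell. Applied to the epiblast the same rule picked 1.49%, 1.61% and 0.388% of cells at median depths of 19060, 22048 and 6260.5 UMIs. In trophoblast it picked 0.107%, 0.0912% and 0.290% at 23061, 23371 and 6451 UMIs. Shares in endoderm thus lay above those of both other lineages in every library. Only 1 library exists per stage, intervals cover counting error only, and stage cannot be told apart from library or from the filter used at E5.5.

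**Figure D1:**
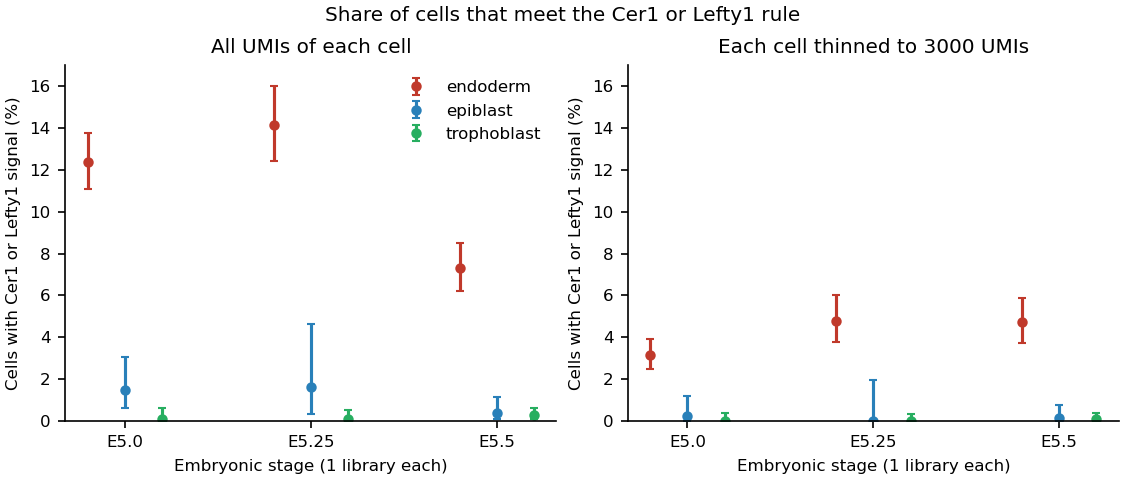
Share of cells (%) meeting the Cer1 or Lefty1 rule in endoderm, epiblast and trophoblast cells of each library, with all UMIs (left) and after thinning every cell to 3000 UMIs (right). Points are single libraries and bars 95% Clopper-Pearson intervals; endoderm lies at 12.4, 14.1 and 7.30% on the left and at 3.13, 4.78 and 4.70% on the right, above both other lineages.

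For genes that the rule did not use, UMIs were summed over the AVE cells and over the other endoderm cells of each library and compared with edgeR's quasi-likelihood test, with the library as a block and the 3 libraries as replicates. Of 12333 genes tested, 12.5% were higher and 12.1% lower in AVE cells (24.5% in either direction) at a Benjamini-Hochberg adjusted p under 0.05. These shares are the background for every count of list members given here. The libraries are 3 stages and not repeats of 1 stage, so the test asks whether a difference holds across them. Fold changes are on the log2 scale with their standard error (SE).

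Regulators that were not used to choose the cells came next, on a list that was chosen with earlier results of these data known. The list is of embryonic visceral endoderm and not of the AVE alone, and the comparison cells include cells with parietal markers. Its count therefore cannot by itself tell AVE cells from other embryonic visceral endoderm. All 10 transcription factors on the embryonic visceral endoderm list were higher in AVE cells (10 of 10 tested, median log2 fold 1.19, against a median of −0.01 over all genes). Otx2 (chr14:48657677-48673819) was at 273.0, 445.8 and 492.6 CPM in AVE cells of the 3 stages, against 58.5, 46.7 and 80.0 CPM in other endoderm. Every AVE value lay above every comparison value, and the log2 fold was 2.70 ± 0.15 (edgeR adjusted p = 4.89e-07). Gsc (chr12:104471209-104473330), the Goosecoid homeodomain factor of the organizer and AVE, was at 72.0, 84.5 and 44.2 CPM against 9.02, 8.41 and 7.25 CPM. Its log2 fold was 3.07 ± 0.13 (edgeR adjusted p = 1.02e-07), with the lowest AVE value at E5.5. Lhx1 (chr11:84518284-84525535), a LIM-homeodomain factor needed for head formation, was at 378.8, 470.4 and 314.8 CPM against 88.3, 78.4 and 59.9 CPM, a log2 fold of 2.36 ± 0.09.

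Hhex (chr19:37434810-37440731), a homeodomain repressor and classical AVE marker, was at 77.5, 107.5 and 148.7 CPM in AVE cells and at 38.7, 25.5 and 31.6 CPM in other endoderm (log2 fold 1.69 ± 0.19, edgeR adjusted p = 7.39e-05). Its AVE level was higher at each later stage and its comparison level was below its E5.0 value at both later stages. Eomes, a T-box factor, and Foxa2, a forkhead factor, had log2 folds of 1.18 ± 0.09 and 0.91 ± 0.10, from 407.7, 423.1 and 333.4 CPM for Eomes and 253.1, 302.7 and 247.5 CPM for Foxa2 in AVE cells. Ssbp3, a cofactor of LIM-homeodomain complexes, had a log2 fold of 1.19 ± 0.08. Mixl1 was higher by 1.11 ± 0.14, but its AVE level went from 103.6 to 48.4 and 13.9 CPM, and at E5.5 it stood beside 12.2 CPM in other endoderm. The calls of Hesx1 and Ldb1 did not hold with each library left out. For Hesx1, a homeodomain repressor of the anterior, the log2 fold was 0.77 ± 0.20 (edgeR adjusted p = 0.0148), 0.66 without the E5.25 library and 0.61 without the E5.5 library, where adjusted p was 0.0891 and 0.0536. For Ldb1, the partner of LHX1, it was 0.41 ± 0.12, and without E5.0 or E5.25 it was 0.43 and 0.29 with adjusted p of 0.0719 and 0.322.

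**Figure D2:**
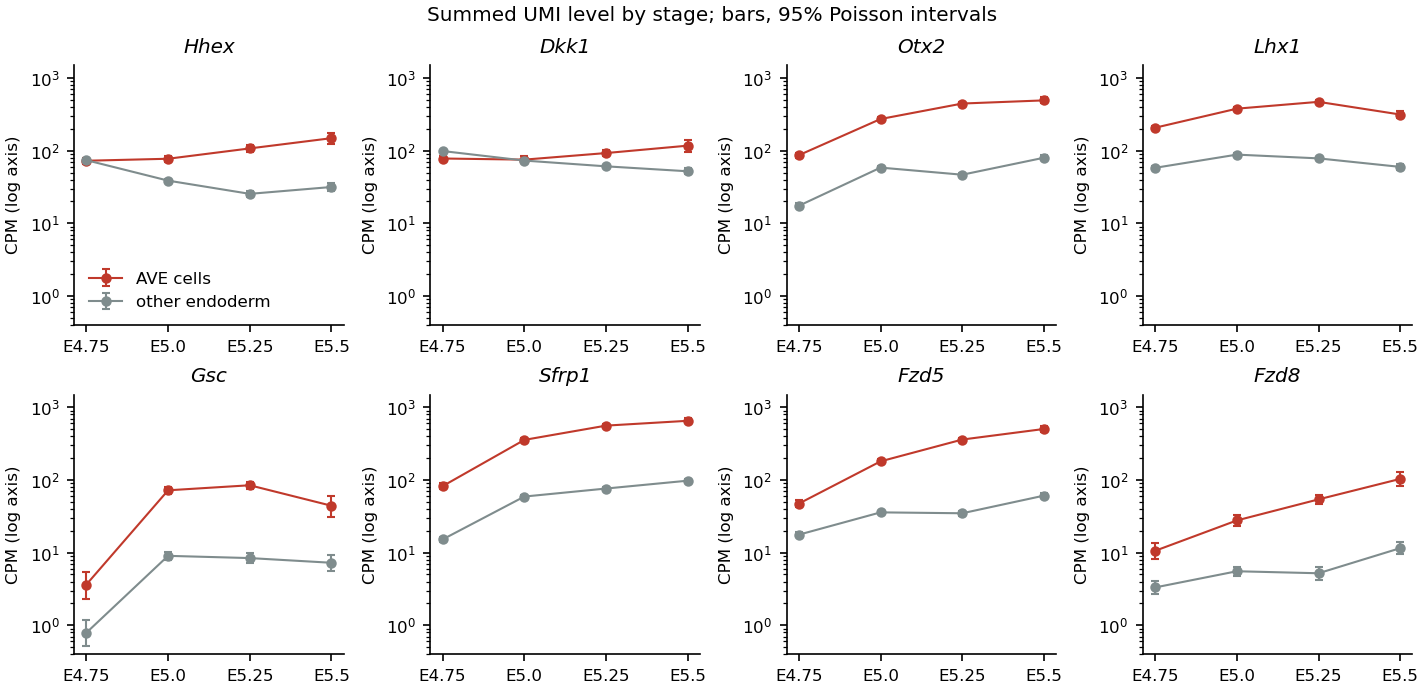
Level (CPM of summed UMIs, log axis) of 8 genes at E4.75 to E5.5 in AVE cells (red) and other endoderm cells (grey), 1 library per stage, with 95% Poisson intervals. At E4.75 Hhex is level in both classes and Dkk1 is lower in the picked cells (78.1 against 98.9 CPM), and by E5.5 both are higher in AVE cells, while Otx2, Lhx1, Gsc, Sfrp1, Fzd5 and Fzd8 are higher in the AVE cells at all 4 stages.

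Of 9 tested regulators of endoderm in general, 6 were lower and 1 was higher in AVE cells. Sox7 is also on the parietal endoderm list, and cells with parietal markers were 31.3%, 37.5% and 32.6% of other endoderm against 2.77%, 4.25% and 14.3% of AVE cells. The higher one was Foxa1, a forkhead factor, at 33.2, 44.7 and 47.6 CPM against 7.28, 9.78 and 12.2 CPM (log2 fold 2.15 ± 0.12). Sox7 and Sox17, the SOX factors of primitive endoderm and its derivatives, were lower by log2 folds of −1.42 ± 0.10 and −0.93 ± 0.09. Gata4 was lower by −0.62 ± 0.07. Without parietal-marker cells in either class these 3 were lower by −0.91, −0.55 and −0.50, and still passed. Gata6, the founding regulator of primitive endoderm, did not pass the test (0.06 ± 0.08, edgeR adjusted p = 0.662), with AVE levels of 260.3, 250.6 and 267.2 CPM against 284.6, 243.7 and 210.7 CPM. Without the E5.5 library its log2 fold was −0.05.

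Signal antagonists other than the 2 that defined the cells, all but Shisa2 secreted, were the next group. Of 8 tested, 5 were higher and 2 lower. Shisa2, which retains WNT and FGF receptors inside the cell, was at 4.29, 17.9 and 55.8 CPM in AVE cells against 0.337, 0.560 and 5.43 CPM in other endoderm (log2 fold 3.90 ± 0.31, edgeR adjusted p = 5.28e-06). It was detected in 4.498%, 20.3% and 25.3% of AVE cells. Sfrp1, a secreted Frizzled-related WNT antagonist, was at 355.8, 559.4 and 651.7 CPM against 59.1, 76.2 and 97.7 CPM, a log2 fold of 2.74 ± 0.07. Its levels in both classes were highest at E5.5, and each AVE value lay above each comparison value.

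Sfrp5, a paralogue long used as an AVE marker, was at 92.9, 114.7 and 75.5 CPM against 20.4, 22.9 and 21.1 CPM (log2 fold 2.18 ± 0.11). Chrd, the BMP antagonist Chordin, was higher by 1.89 ± 0.29 from low levels of 5.86, 8.83 and 8.13 CPM. Dkk1, the secreted LRP5/6 antagonist, was at 75.3, 92.8 and 117.3 CPM against 73.1, 60.9 and 52.1 CPM. The classes were level at E5.0 and apart at E5.5, with AVE over other ratios of 1.03 (95% counting interval 0.923 to 1.15), 1.52 (1.35 to 1.72) and 2.25 (1.80 to 2.80). Across libraries the log2 fold of Dkk1 was 0.51 ± 0.16 (edgeR adjusted p = 0.0342), but it was 0.47 and 0.32 without the E5.25 or E5.5 library, with adjusted p of 0.0870 and 0.145. The 2 lower members were Bmper, a BMP-binding secreted protein, at −1.88 ± 0.16, and Frzb, another Frizzled-related antagonist, at −1.37 ± 0.19. When cells with parietal endoderm markers were taken out of both classes, the log2 fold of Frzb was 0.87 (edgeR adjusted p = 0.034).

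In the NODAL pathway 6 of 17 tested genes were higher and 3 lower (medians of 0.12 for the list and −0.01 for all genes). Nodal itself, the TGFβ-family ligand, was at 34.9, 35.0 and 20.9 CPM in AVE cells against 12.7, 10.3 and 6.29 CPM in other endoderm (log2 fold 1.61 ± 0.13, edgeR adjusted p = 7.33e-06). Each AVE level lay above each comparison level. Gdf3, a related ligand, was at 9.37, 8.83 and 5.81 CPM against 2.23, 2.65 and 2.24 CPM (1.85 ± 0.25). In the epiblast of the E5.0 library Nodal stood at 15.1 CPM and Gdf3 at 44.2 CPM, so the Gdf3 level of AVE cells was below that of epiblast and the Nodal level above it. Tgif1, a repressor of SMAD-driven transcription, was higher by 0.87 ± 0.10. Pcsk6, a protease that processes pro-NODAL, and the inhibitory SMAD gene Smad7 were lower by −1.10 ± 0.20 and −0.48 ± 0.09.

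In the WNT pathway 7 of 18 genes were higher and 2 lower. The higher ones included 3 Frizzled receptors, while the co-receptor genes Lrp5 and Lrp6 were not called. Fzd5, a Frizzled receptor, was at 180.3, 359.7 and 503.0 CPM in AVE cells against 35.8, 34.8 and 60.8 CPM (log2 fold 2.91 ± 0.16, edgeR adjusted p = 3.58e-07). Fzd8 was at 27.7, 54.0 and 103.4 CPM against 5.54, 5.196 and 11.5 CPM (2.93 ± 0.19). Both receptors were highest at E5.5 in both classes. Fzd7 was higher by 0.85 ± 0.10, and Porcn, the acyltransferase that WNT ligands need for secretion, by 1.33 ± 0.14. The transcriptional partners Tcf7l1 and Tcf7l2 and the coactivator Ctnnb1 (β-catenin) were higher by 0.84 ± 0.11, 0.86 ± 0.13 and 0.52 ± 0.05. Axin2, a feedback target of β-catenin, was lower, at 5.27, 4.01 and 0 CPM against 9.51, 8.86 and 10.2 CPM (−1.16 ± 0.30, edgeR adjusted p = 0.0159). The 0 at E5.5 has a 95% Poisson upper bound of 4.29 CPM, and the call did not hold in cells thinned to 3000 UMIs (−1.03) or with E4.75 added (−0.76).

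In the BMP pathway 3 of 13 tested genes were higher and 6 lower. The ligand gene Bmp2 was at 35.5, 76.0 and 103.4 CPM in AVE cells against 16.1, 20.3 and 26.7 CPM (log2 fold 1.64 ± 0.15, edgeR adjusted p = 1.54e-05). The receptor-activated SMAD genes Smad1 and Smad5 were higher by 0.68 ± 0.07 and 0.91 ± 0.11. All 6 lower genes, Id1, Id2, Id3, Smad6, Msx1 and Msx2, are targets or feedback inhibitors that BMP signals are known to induce. Id2 was at 80.8, 78.4 and 137.1 CPM against 221.7, 313.1 and 364.0 CPM (−1.64 ± 0.10), and Smad6 was lower by −1.34 ± 0.18. Id1 and Id3 were lower by −0.90 ± 0.15 and −0.68 ± 0.13, with the classes closest at E5.5 (228.9 against 274.7 CPM for Id1, 160.3 against 175.8 CPM for Id3). Msx1 and Msx2 were called narrowly at −1.18 ± 0.39 and −0.46 ± 0.15 (edgeR adjusted p = 0.0479 and 0.0430), and neither call held without E5.25 (−0.80 and −0.26) or without E5.5 (−1.02 and −0.45). Without E5.0 the log2 fold of Msx1 was −1.85.

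The FGF and ERK list had 4 of 14 tested genes higher and 2 lower. The ligand genes Fgf8 and Fgf5 stood out. Fgf8 was at 224.0, 182.9 and 151.0 CPM in AVE cells against 55.6, 37.9 and 33.2 CPM (log2 fold 2.15 ± 0.08, edgeR adjusted p = 4.51e-08), and Fgf5 at 226.2, 247.4 and 231.2 CPM against 93.7, 59.6 and 55.6 CPM (1.75 ± 0.14). Both are genes that the epiblast also expresses: there Fgf8 was at 53.1 and Fgf5 at 90.4 CPM at E5.0, below the AVE levels of that library. Dusp6, an ERK phosphatase that ERK signalling induces, was higher by 0.85 ± 0.15. The receptor gene Fgfr3 was lower by −1.31 ± 0.15. Flrt2, a membrane protein that binds FGF receptors, was at 0.781, 0.535 and 0 CPM against 11.8, 16.9 and 30.0 CPM, with 4, 2 and 0 UMIs in AVE cells. Its log2 fold of −4.62 ± 0.34 was −5.42 without the E5.0 library.

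**Figure D3:**
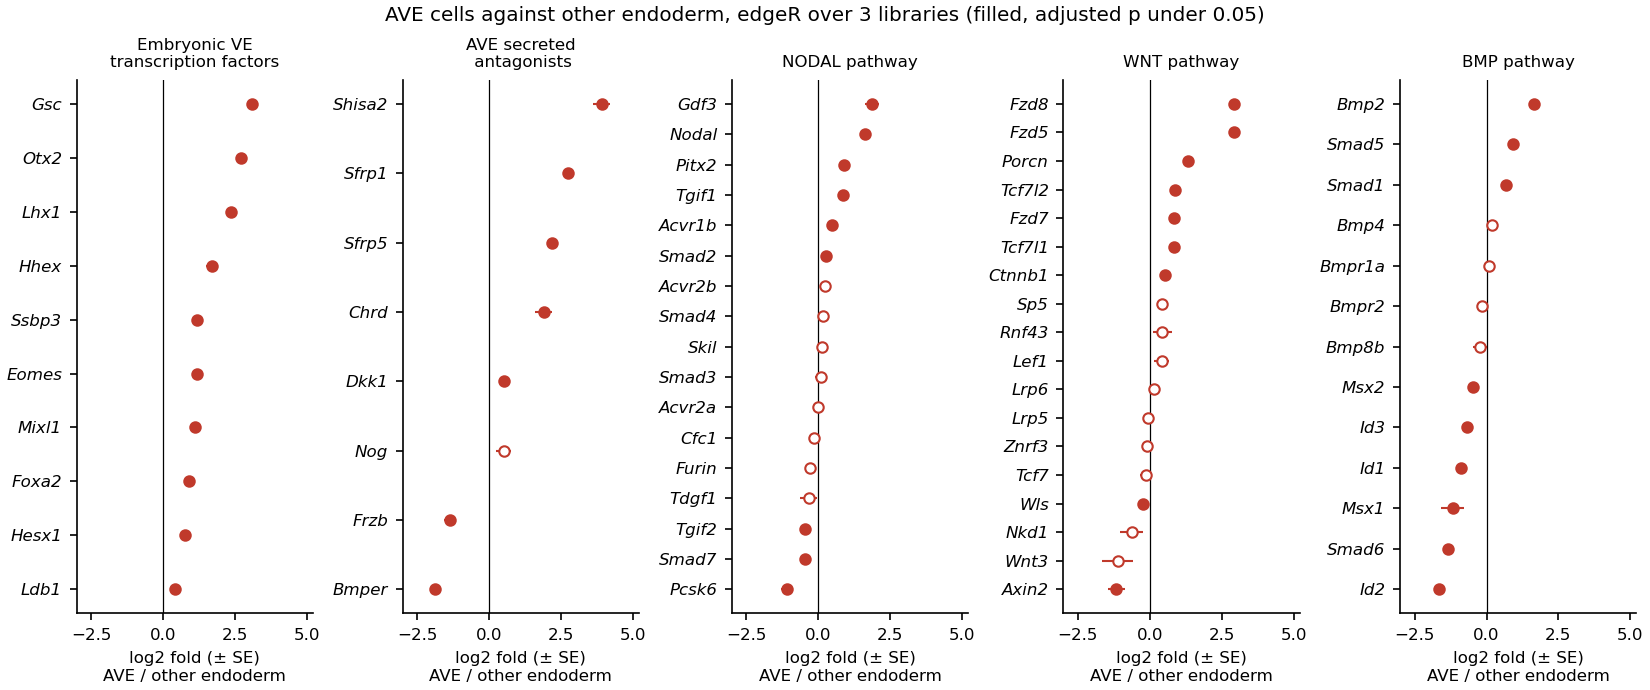
Log2 fold of AVE over other endoderm cells (± SE, edgeR, 3 libraries) for the tested genes of 5 lists; filled points passed the adjusted p threshold of 0.05 and open points did not. The 10 transcription factors all lie right of 0, and the BMP list has Bmp2, Smad5 and Smad1 on the right and the Id genes and Smad6 on the left.

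On the migration and planar polarity list 3 of 20 genes were higher and 2 lower, near the 24.5% of all genes that were called in either direction. Rac1 and Nckap1, a GTPase and a WAVE-complex subunit known to be required for AVE migration, did not pass the test (−0.04 ± 0.06 and −0.05 ± 0.07). Rac1 was at 316.0, 267.4 and 271.9 CPM in AVE cells and 322.0, 278.8 and 278.3 CPM in other endoderm. Prickle2, a planar polarity gene, was higher at 189.7, 346.8 and 256.7 CPM against 68.0, 80.3 and 94.5 CPM (1.71 ± 0.12, edgeR adjusted p = 1.93e-06). The planar polarity genes Celsr1 and Vangl2 were called at 1.20 ± 0.38 and 0.62 ± 0.13, but neither call held without E5.25 (0.62 and 0.53). For Celsr1 the value was 1.06 without E5.5, where the call was also lost, and 1.89 without E5.0.

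Guidance genes split evenly, 4 higher and 4 lower of 14 tested. Efna5, an ephrin ligand anchored to the membrane, was at 315.8, 643.7 and 742.4 CPM in AVE cells against 43.6, 70.1 and 86.5 CPM (log2 fold 3.05 ± 0.08, edgeR adjusted p = 2.17e-09). It was detected in 89.3%, 95.3% and 85.1% of AVE cells and in 23.0%, 23.4% and 19.5% of the others. At 3000 UMIs per cell, with AVE cells chosen anew, these shares were 74.0%, 73.2% and 73.0% against 13.9%, 18.3% and 15.1%. Epha4, an Eph receptor, Ntn1, which encodes netrin-1, and Plxna2, a semaphorin co-receptor, were higher by 0.80 ± 0.10, 1.23 ± 0.09 and 0.97 ± 0.10. Efnb1, a transmembrane ephrin, went from 50.4 to 34.0 and 18.6 CPM in AVE cells while other endoderm stood at 93.5, 89.2 and 80.1 CPM (−1.23 ± 0.14). Sema6a was lower by −0.83 ± 0.10.

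Junction and polarity genes were higher in 9 of 14 cases and lower in none. Most of these differences were small (list median 0.26), and the count was 4 without the E5.25 library, 5 in thinned cells and 5 with DESeq2. Cdh2, which encodes N-cadherin, was the exception in size: 297.6, 421.4 and 221.9 CPM against 93.0, 124.6 and 96.2 CPM (log2 fold 1.60 ± 0.09, edgeR adjusted p = 5.90e-07). Cdh1, which encodes E-cadherin, was also higher, at 337.2, 350.9 and 525.1 CPM against 251.2, 245.8 and 319.5 CPM (0.54 ± 0.07). Epcam and Pard3 were higher by 0.59 ± 0.07 and 0.52 ± 0.08. Both cadherins were thus higher in AVE cells, Cdh1 with its highest AVE value at E5.5 and Cdh2 with its lowest.

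Beyond the lists, 12 genes were named for the highest and 12 for the lowest AVE to other ratio in the weakest of the 3 libraries. Among the higher 12, Efna5, Sfrp1, Fzd5, Otx2, Lhx1 and Fgf8 are described above. The other 6 were Cd24a, Grb10, Pkdcc, Sox4, Mecom and Dppa3. Cd24a, a surface sialoglycoprotein, was at 115.1, 271.4 and 313.7 CPM in AVE cells against 13.4, 27.7 and 47.7 CPM (3.06 ± 0.11, edgeR adjusted p = 2.33e-08). Grb10, an imprinted adaptor that restrains insulin-type receptors, was at 244.5, 614.3 and 754.0 CPM against 45.0, 75.7 and 136.1 CPM (2.66 ± 0.11). Both were lowest at E5.0 in both classes.

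Pkdcc, a secreted tyrosine kinase, was at 93.1, 163.4 and 190.5 CPM against 14.5, 15.9 and 31.9 CPM (2.90 ± 0.14). Sox4, a SOX factor, was higher by 2.66 ± 0.12. Mecom, a zinc-finger regulator, was at 59.3, 170.9 and 90.6 CPM against 8.17, 10.8 and 12.2 CPM (3.33 ± 0.20). Dppa3, a maternal and germline factor that limits DNA methylation, was at 68.9, 93.3 and 75.5 CPM against 6.85, 12.1 and 12.6 CPM (3.02 ± 0.13, edgeR adjusted p = 1.06e-07). Its level in the epiblast at E5.0 was 31.3 CPM, below that in AVE cells. All 12 of these calls held under the 15 other ways of fitting that were run. Those fits reuse the libraries in which the 12 genes were chosen for their ratios, so this is not independent support.

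**Figure D4:**
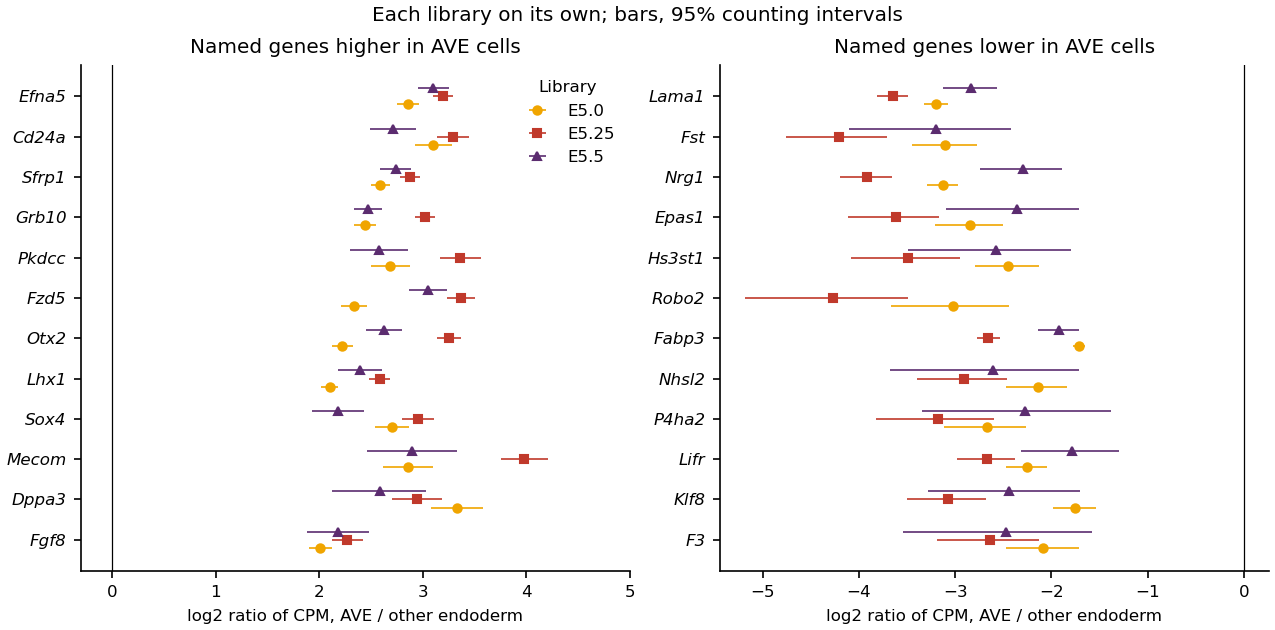
Log2 ratio of CPM, AVE over other endoderm, for the 12 higher and 12 lower named genes in each library (circle E5.0, square E5.25, triangle E5.5), with 95% counting intervals. The genes were chosen for the same direction in all 3 libraries, so the ratios of a gene lie on 1 side of 0 by choice. The E5.5 point of Robo2 is not drawn because only 3 UMIs were counted there in AVE cells.

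The lower 12 were led by Lama1, the laminin chain of the early basement membrane, at 109.7, 84.5 and 126.6 CPM in AVE cells against 1007, 1057 and 903.6 CPM in other endoderm (log2 fold −3.28 ± 0.11, edgeR adjusted p = 1.91e-08). Fst, which encodes the activin and BMP binder follistatin, was at 14.8, 8.56 and 15.1 CPM against 127.4, 157.9 and 138.2 CPM (−3.49 ± 0.17). Nrg1, an ERBB ligand, was at 61.5, 31.8 and 55.8 CPM against 536.8, 481.2 and 273.8 CPM (−3.27 ± 0.18). All 3 were several-fold lower in each library. Lifr, the receptor chain for LIF, was at 37.1, 25.7 and 40.7 CPM against 177.0, 163.0 and 140.1 CPM (−2.32 ± 0.12). The others were Epas1 (a hypoxia-inducible factor, −3.05 ± 0.16), Hs3st1 (a heparan sulfotransferase, −2.80 ± 0.17), Fabp3 (a fatty acid carrier, −2.09 ± 0.14), Nhsl2 (−2.47 ± 0.15), P4ha2 (a collagen prolyl hydroxylase subunit, −2.79 ± 0.15) and F3 (tissue factor, −2.33 ± 0.14). The log2 folds of Robo2, a SLIT receptor, and Klf8, a Krüppel-like factor, were −3.62 ± 0.20 and −2.27 ± 0.19, and −4.21 and −2.91 without the E5.0 library.

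Parietal endoderm, the other derivative of primitive endoderm, moved with this side of the comparison. Cells with at least 3 UMIs of parietal markers (Thbd, Plat, Fst and Pth1r) per 10000 made up 2.77%, 4.25% and 14.3% of AVE cells and 31.3%, 37.5% and 32.6% of other endoderm cells. This cut is a rate, so fewer marker UMIs meet it in the shallower E5.5 cells, and no change with stage is read from these shares. Of the 11 parietal list genes 10 were lower in AVE cells and none higher, and 8 of 12 basement membrane genes were lower and 1 higher; the lists share Lama1, Lamb1, Col4a1 and Sparc. The summed parietal list stood at 2775, 2299 and 1966 CPM in AVE cells and at 5856, 5918 and 4554 CPM in the others. No gene of it was at 0 in AVE cells in any library.

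How far a gene was lower depended on which endoderm cells it was set against. Without parietal-marker cells in either class, Lama1 was at −1.53 and Sparc, a collagen-binding matrix protein, at −0.63, against −3.28 and −1.32 with them. Lamb1 and Lamc1, the partner chains of Lama1 in laminin-111, were lower by −1.48 ± 0.12 and −1.46 ± 0.09 against all other endoderm, but at 0.06 and 0.24 without parietal-marker cells, where neither passed (edgeR adjusted p = 0.697 and 0.116). Of the 7 parietal list genes that did not define those cells, 4 remained lower there. Epas1, P4ha2 and F3 no longer passed, at −0.59, −0.66 and −0.49 (edgeR adjusted p = 0.0644, 0.102 and 0.0914). Lama5, the laminin chain of later epithelia, was higher by 0.72 ± 0.09 against all other endoderm. Against other endoderm cells with at least 1 Eomes UMI, Lamb1 and Lamc1 were at −0.41 and −0.36, and 6 of 11 parietal list genes were lower.

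The 5 higher genes set beside these stayed several-fold higher. Without parietal-marker cells the log2 fold was 2.29 for Otx2, 1.65 for Hhex, 1.95 for Lhx1, 2.33 for Sfrp1 and 2.64 for Efna5.

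**Figure D5:**
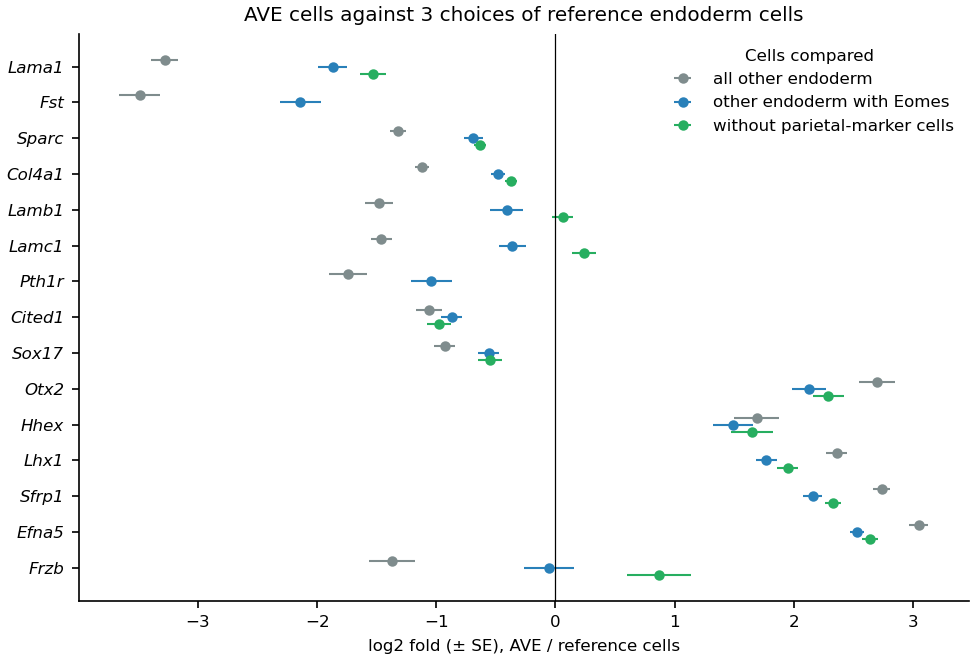
Log2 fold (± SE, edgeR) of AVE cells over 3 choices of comparison: all other endoderm (grey), other endoderm with an Eomes UMI (blue), and both classes without parietal-marker cells (green; not drawn for Pth1r and Fst, which define those cells). Lamb1 and Lamc1 move from −1.48 and −1.46 to 0.06 and 0.24, whereas Otx2, Hhex, Lhx1, Sfrp1 and Efna5 stay above 1.

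Transport genes that mark mature visceral endoderm were in part higher, 6 of 15, and in part lower, 3 of 15. Rbp4, the retinol carrier, was at 95.04, 200.6 and 197.5 CPM in AVE cells against 36.9, 64.5 and 77.8 CPM (log2 fold 1.47 ± 0.09, edgeR adjusted p = 6.03e-07). Trf (transferrin), Afp (alpha-fetoprotein) and Apob (the lipoprotein scaffold) were higher by 1.53 ± 0.13, 1.28 ± 0.17 and 0.70 ± 0.13. Fabp1, a fatty acid carrier, was lower at 5.46, 2.67 and 3.48 CPM against 21.4, 36.5 and 25.4 CPM, a log2 fold of −2.70 ± 0.26 that was −3.57 without the E5.0 library. On the list of extraembryonic visceral endoderm markers, which shares Afp and Rbp4, 2 of 6 were higher and 3 lower. Cited1, a transcriptional coactivator, was at 529.5, 297.1 and 190.5 CPM in AVE cells against 846.3, 748.3 and 466.0 CPM (−1.06 ± 0.11), and Rhox5, an X-linked homeobox gene, was lower by −0.34 ± 0.06.

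The course from E4.75 to E5.5 was followed as a description, since each stage is 1 library. At E4.75 the rule picked 146 of 1067 endoderm cells (13.7%), 142 of them through Lefty1, but 15.1% of epiblast cells as well, and 0.751% of endoderm and 0.868% of epiblast cells at 3000 UMIs. At that stage the share in endoderm was thus not above that in epiblast. In these E4.75 cells Hhex stood at 72.7 CPM beside 74.0 CPM in other endoderm, and Dkk1 at 78.1 beside 98.9 CPM. Across the 4 stages other endoderm had 74.0, 38.7, 25.5 and 31.6 CPM of Hhex and 98.9, 73.1, 60.9 and 52.1 CPM of Dkk1. Both genes thus had their highest comparison level at E4.75 and their highest AVE level at E5.5. All E4.5 endoderm cells together had 39.2 CPM of Hhex and 77.4 CPM of Dkk1, while Gsc had 0 UMIs (95% Poisson upper bound 0.850 CPM) and Otx2 8.29 CPM.

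Otx2, Lhx1, Sfrp1 and Efna5 followed another course. At E4.75 they stood at 86.8, 207.1, 82.2 and 57.5 CPM in the cells the rule picked, against 17.5, 58.1, 15.2 and 7.26 CPM in other endoderm. Gsc was at 3.64 against 0.789 CPM. These 5 genes already differed in the E4.75 library, whereas Hhex and Dkk1 did not lie higher in the picked cells there. Cells with parietal markers made up 7.53% of the picked cells and 48.3% of other endoderm at E4.75. Median depths there were 42508 and 30640 UMIs per cell. The part of parietal-marker cells or of depth in these E4.75 differences was not tested.

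Between E5.0 and E5.5 few genes of AVE cells differed 2-fold on the log2(CPM + 10) scale, 1.49% of 9000 measured genes higher and 1.08% lower at E5.5. The WNT pathway list had 3 of 13 measured genes 2-fold higher (Fzd5, Fzd8 and Tcf7l2), the BMP list 2 of 11 (Bmp2 and Id3) and the guidance list 2 of 11 (Robo1 and Efna5), with Efnb1 2-fold lower, and 1 of 10 embryonic visceral endoderm factors was 2-fold lower (Mixl1). Plain ratios of E5.5 over E5.0 in AVE cells were 3.73 for Fzd8 (95% counting interval 2.83 to 4.90), 2.79 for Fzd5 (2.48 to 3.13) and 13.0 for Shisa2 (7.69 to 22.6). In other endoderm they were 2.08 (1.62 to 2.65), 1.70 (1.54 to 1.88) and 16.2 (8.31 to 34.4), so Shisa2 was higher at E5.5 in both classes. For Hhex the ratio was 1.92 (1.56 to 2.35) in AVE cells and 0.817 (0.718 to 0.928) in other endoderm. The AVE cells of E5.0 and E5.5 were not chosen alike: 71.3% and 21.4% entered by Lefty1 without Cer1, at median depths of 16178 and 4610 UMIs. The part of this in the stage differences was not tested.

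AVE cells were also compared by the condition they met. In AVE cells with Cer1 over those with Lefty1 alone, the ratio at E5.0, E5.25 and E5.5 was 1.02, 1.01 and 1.20 for Otx2, 1.02, 0.936 and 0.842 for Lhx1, and 1.13, 1.18 and 0.813 for Hhex, and each of these 95% counting intervals spanned 1. Other genes differed at E5.0, where the ratio was 1.46 for Sfrp1 (1.32 to 1.61), 1.38 for Efna5 (1.25 to 1.53), 1.32 for Fzd5 (1.15 to 1.51), 0.494 for Id2 (0.374 to 0.643) and 0.694 for Lama1 (0.563 to 0.851). At E5.25 and E5.5 it was 1.08 and 0.831 for Sfrp1, 0.946 and 0.952 for Fzd5, and 0.901 and 1.61 for Id2. Each of these later intervals spanned 1, so the E5.0 differences of Sfrp1, Fzd5 and Id2 did not recur. Those of Fst, a parietal marker, and Fos did recur at E5.25. At E5.0 and E5.25 the ratio was 0.259 (0.101 to 0.564) and 0.336 (0.142 to 0.739) for Fst. For Fos it was 0.449 (0.204 to 0.886) and 0.257 (0.165 to 0.391). At E5.5 too few UMIs were counted for a ratio, 13 with Cer1 and 0 with Lefty1 alone for Fst, and 20 and 2 for Fos. For Efna5 and Lama1 only the E5.0 ratio is given here. Cells with Cer1 and fewer than 2 Lefty1 UMIs also differed from those that met both conditions. At E5.25 they had 317.3 CPM of Otx2 against 496.4 CPM in cells with both and 443.7 CPM with Lefty1 alone. For Lhx1 the 3 levels were 312.2, 511.8 and 488.4 CPM, for Hhex 54.3, 137.7 and 97.5 CPM, and for Efna5 349.5, 739.2 and 658.9 CPM. The cells with Cer1 but little Lefty1 were thus the lowest of the 3 sets for these 4 genes at that stage. Dkk1 and Gsc at E5.5 are given as 2 examples among several genes that differed there, such as Rock2 (2.08, 1.29 to 3.56) and Etv5 (0.380, 0.206 to 0.711); the genes of this paragraph were chosen after their values were seen. At E5.5 Dkk1 stood at 156.5 CPM (81 UMIs, 95% Poisson interval 124.3 to 194.6) in the 93 cells with Cer1 and fewer than 2 Lefty1 UMIs, 75.1 CPM (38.8 to 131.2) in the 28 cells with both and 43.6 CPM (18.8 to 85.9) in the 33 with Lefty1 alone. Gsc ran the other way in the same 3 sets, at 21.3 (10.6 to 38.0), 81.4 (43.3 to 139.2) and 76.3 CPM (41.7 to 127.9). Trophoblast markers differed between these sets too. In the same order Elf5 stood at 52.2, 12.5 and 21.8 CPM and Tfap2c at 59.9, 12.5 and 10.9 CPM. Plet1 stood at 83.1, 12.5 and 43.6 CPM and Hand1 at 75.4, 75.1 and 38.1 CPM. Only 2 UMIs each of Elf5, Tfap2c and Plet1 were counted in the cells with both. The part of such RNA in the Dkk1 and Gsc values was not tested. At E5.0 and E5.25 the Cer1 to Lefty1-alone ratio was 0.894 and 0.825 for Dkk1 and 1.04 and 0.894 for Gsc. Each stage is 1 library, few UMIs stand behind the E5.5 values, and no difference between stages or sets was tested.

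Markers of other lineages and signs of handling were checked in the same sums. The 10 epiblast markers, 4 of them used by the rule, summed to 986.5 to 1223 CPM in AVE cells, 810.6 to 1108 CPM in other endoderm and 4743 to 5080 CPM in epiblast, and Nanog was at 0 UMIs in the AVE cells of all 3 libraries. Their part in the higher Nodal, Gdf3, Fgf5, Otx2 and Dppa3 levels was not tested. At E5.0 the AVE levels of Nodal, Fgf5, Otx2 and Dppa3 were above those of the epiblast (Otx2 there was at 152.5 CPM) and that of Gdf3 was below. Epiblast levels of these genes at E5.25 and E5.5 are not given here, so the E5.0 order need not hold there. Trophoblast markers summed to 144.4 to 281.1 CPM in AVE cells and 210.1 to 486.7 CPM in other endoderm, with none of the 10 at 0 in AVE cells. Uterine and blood markers summed to 6.42 to 9.29 CPM, with 7 or 8 of 10 at 0. Immediate early genes, which dissociation can induce, were lower in AVE cells in 6 of 10 tested cases and higher in none, with Egr1 at −2.23 ± 0.20 and Fos at −0.82 ± 0.17; their part in other differences was not tested. On the cell cycle lists 3 of 16 S-phase genes and 6 of 16 G2 and M genes were higher, each under 2-fold, and 1 G2 and M gene, Mki67, was lower. Among 7 D cyclins and CDK inhibitors 1 was higher, Cdkn1b, and 3 were lower: Ccnd2 (−2.66 ± 0.38), Cdkn1c (−1.51 ± 0.22) and Ccnd3 (−0.55 ± 0.09). Few UMIs stand behind the Ccnd2 value. At E5.0, E5.25 and E5.5 there were 1, 0 and 1 in AVE cells with Cer1 and 6, 1 and 1 in those with Lefty1 alone. Mki67 (−0.27 ± 0.07) and Cdkn1b (0.45 ± 0.11) lost the call without E5.0 (−0.28 and 0.45) or E5.25 (−0.29 and 0.45) at a like fold, and Mki67 was at −0.13 without parietal-marker cells (edgeR adjusted p = 0.252).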

How the data were processed

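Single-cell RNA libraries (1 per stage) were used as UMI counts per gene and barcode, deposited as matrices that, per the file headers, Cell Ranger 7.1.0 made. Builds in the submitters' processing notes are hg38, mm10 and GRCm38. No source used here gives the role of hg38, the alignment settings or whether counting used strand. Exons of Otx2, Fzd5, Sox4, Mecom, Fst, Nrg1, Fabp3, Col4a1 and Pth1r, among others, overlap an opposite-strand gene, so reads of the pairs may be mixed. Total UMIs were 80593552 to 112702098 in the 3 libraries. Cell classes come from the marker rule alone, and doublets were removed only in an alternative (Scrublet in scanpy 1.11.5). The E5.5 library has 27302 barcodes, of which 8709 were kept. No AVE barcode was shared between libraries.

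UMIs were summed per class and library and tested with edgeR 4.0.16 (TMM, low-count filter, library as block, 2 residual degrees of freedom). Genes of the rule were not tested. On simulated counts 59.7%, 87.7% and 98.4% of genes changed 1.5-, 2- and 4-fold were recovered, with 0.0495% of unchanged genes called. Only 67, 65 and 64 of 12329 genes were changed by these folds, a far smaller share than was called in the data. The rates therefore need not hold for the real comparison. Levels are CPM with exact Poisson intervals. Embryos are pooled, so spread between libraries mixes stage and technical error. Gene positions are GENCODE M21 on GRCm38, with 99.6% of 32285 identifiers matched. The named genes had at least 50 CPM in the higher class and the same direction in 3 libraries, ranked by the weakest log2 ratio of CPM plus 10. Members and lists were chosen with earlier results of these data known. Epiblast cells had at least 15 UMIs per 10000 of the 4 epiblast genes and under 5 of the endoderm genes, and trophoblast cells at least 5 of Elf5, Tfap2c, Hand1 and Plet1 and under 5 of both. Alternatives were DESeq2 1.42.0, scaling, filters, block, thinning, single-gene rules, comparison cells, E4.75 added and each library left out.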

Additional observations from a re-analysis of the deposited data

Results flagged for a closer look

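Gata6, which did not pass the test across libraries, had AVE over other endoderm ratios on opposite sides of 1 in the E5.5 and E5.0 libraries. The ratio was 1.268 at E5.5 (95% counting interval 1.101 to 1.454) and 0.9147 at E5.0 (0.863 to 0.9688). The AVE level was 260.3 CPM at E5.0 and 267.2 CPM at E5.5, and the level in other endoderm was 284.6 and 210.7 CPM. The difference between the stages was not tested, since each is 1 library.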

How the results depend on the processing

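Of a set of 102 tested genes drawn from those named in the text or figures, 99 were called. Of these, 95 kept their direction under all 15 alternatives, and 61 kept the call as well. The set leaves out some named or plotted genes that were not called, such as Lrp5 or Lrp6, so these counts describe mostly called genes. The count of genes higher in AVE cells (1537) and lower (1490) was 506 and 491 without the library block, 897 and 922 with DESeq2, 958 and 827 with E4.75 added, 476 and 535 with cells thinned to 3000 UMIs, and 773 to 1332 and 784 to 1286 with 1 library left out, lowest without E5.25. The share of endoderm cells called AVE at E5.0, E5.25 and E5.5 was 3.13%, 4.78% and 4.70% after thinning, 3.55%, 7.67% and 5.73% by Cer1 alone, 11.7% at E5.25 and 2.89% at E5.5 by Lefty1 alone, and 9.62% at E5.5 with at least 2500 genes per cell. Directions turned for Gata6 (−0.05 to 0.17 with 1 library left out, the lowest without E5.5, −0.08 with E4.75 added), Vangl2 (−0.11) and Rac1 (0.07) in thinned cells, Nckap1 (0.04 against cells with Eomes, 0.05 without parietal-marker cells), and Frzb (0.87), Lamb1 (0.06) and Lamc1 (0.24) without parietal-marker cells; beyond the cells left out, the cause was not tested. The labels give no replicate number that pairs samples, and the library was a block in the main design. That block pairs the AVE sum with the other endoderm sum of the same library. With 1 library per stage, no pairing beyond it was possible. At E5.5 the AVE sum holds 860762 UMIs, against 5124009 at E5.0, which limits genes of low level.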

Other observations

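At E4.5 the rule picked 7 of 347 endoderm cells (2.02%, 95% Clopper-Pearson interval 0.815 to 4.11%), 3 of them with Cer1, and 10 of 118 epiblast cells (8.47%).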
